A study of Mus musculus with 28 samples.

Results

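Deletion of Nrf2 in cultured 3LL cells that already lacked KEAP1 was examined by comparing 4 libraries of KEAP1 and NRF2 double knockout (DKO) cells with 4 libraries of KEAP1-knockout (KEAP1-KO) cells. These are 8 of the 28 RNA-seq libraries of the series, and every row that carries a gene symbol was taken as a member. Of 43143 rows in the table, 18509 carry a symbol, and 13445 of these had enough reads to be tested. The series also holds 4 libraries of wild-type (WT) 3LL cells and 16 libraries of subcutaneous tumors grown from these cells in 2 transplantation experiments, and it was made to find out what NRF2 activity in the cancer cell does to the tumor. 3LL is a mouse lung carcinoma cell line of male origin. The KEAP1-KO cells carry a homozygous 1-base insertion in exon 2 of Keap1, made with CRISPR-Cas9. The DKO cells were made from KEAP1-KO cells by a further round of CRISPR-Cas9 editing, which left a 1-base insertion on 1 Nrf2 allele and a 1-base deletion on the other, both in exon 5. All 3 lines were grown in the same serum-containing medium, with no treatment named. Each edited line was grown from a single colony, so the genotype cannot be told apart from other differences between 2 clones. More than 1 KEAP1-KO line was made, and the labels do not say which was sequenced or whether the DKO line descends from it. No label says whether the 4 libraries of a genotype came from separate cultures, so the p-values measure the spread between these libraries, which may be technical. The extraction text in the labels names mouse liver, whereas the titles and sample fields name a cell line.

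NRF2, encoded by Nfe2l2, is a transcription factor that pairs with small MAF proteins and binds antioxidant response elements in DNA. KEAP1 is the adaptor that hands NRF2 to a ubiquitin ligase, so that NRF2 is normally destroyed soon after it is made, and electrophiles or oxidants that modify KEAP1 let NRF2 accumulate. Loss of KEAP1, common in lung cancer, leaves NRF2 permanently active, with high expression of enzymes that make and use glutathione, reduce quinones, supply NADPH and pump conjugated toxins out of the cell. In DKO cells KEAP1 is still absent, so the comparison with KEAP1-KO cells asks which RNAs of KEAP1-deficient cells change when NRF2 is also lost.

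The 8 libraries held between 6030520 and 7524293 reads over the rows of the table, and between 19.4 and 22.1% of rows were at 0 in each. All values below are log2(normalized count + 4), in which a row without reads reads 2.0, so differences of rows with few reads are compressed. A row is either a whole gene or 1 transcript of a gene, and a gene named below stands for its row. Of the 13445 rows tested, 5676 were gene rows, 3449 retained-intron transcripts, 1564 processed transcripts and 1304 protein-coding transcripts, and the kind is given for the genes described most closely. The first principal component of the 8 libraries held 24.9% of the variance and set DKO apart from KEAP1-KO cells (scores of 45.4 ± 5.37 and -45.4 ± 3.63, SD, n = 4; p = 0.0286 by a two-sided exact permutation test, below which 4 against 4 libraries cannot go). On the second component, with 14.4% of the variance, DKO replicate 3 stood at 75.9 whereas the other 3 DKO libraries lay between -40.6 and -3.58. The comparison called 2627 rows, which were 8.83% of all 29744 rows tested with or without a symbol. Without that library 2155 rows were called, and without each of the other 7 libraries between 2017 and 2279.

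Several defining markers of other cell types were absent from the cultures. Adgre1, Cd3e, Ckm and Myh4 had no read in any of the 8 libraries, and Ptprc, Itgam, Hba-a1, Hbb-bs and Alas2 had between 1 and 9 reads in all 8 together. The leukocyte marker Lyz2 had 37 reads and the muscle marker Acta1 116, with no library at 0 for either. The summed normalized counts of the leukocyte list were 325 to 356 in KEAP1-KO and 344 to 378 in DKO cells, and those of the muscle list 15.2 to 27.9 and 18.9 to 38.4. Among stromal markers Pecam1, Kdr, Cdh5, Pdgfra and Dpt were detected with 60 to 466 reads in total, and Pi16 with 15. Krt8, a keratin of simple epithelium, was abundant at 11.6 to 11.8 in KEAP1-KO and 11.4 in each DKO library, whereas the rows that carry the symbols Krt18, Vim and Mki67 held few reads (30 to 202 in total).

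The targeted genes were read first. Keap1 (gene row ENSMUSG00000003308) stood at 7.65, 7.54, 7.65 and 7.52 in KEAP1-KO cells and at 7.31, 7.30, 7.47 and 7.31 in DKO cells, against a mean of 9.45 ± 0.09 (SD, n = 4) in WT cells. Both edited lines lay below WT cells, with differences of -1.86 (limma adjusted p = 2.20e-09) and -2.10 (limma adjusted p = 8.24e-10). Between the edited lines Keap1 differed by -0.25 ± 0.07 (SE; limma adjusted p = 0.0398), a call that held in 2 of 8 fits without 1 library. Nfe2l2 is present only as a processed transcript row ENSMUST00000152371, at 4.66, 4.64, 5.17 and 4.86 in KEAP1-KO and 4.88, 5.46, 4.58 and 5.32 in DKO cells. The 2 groups overlapped, and the difference of 0.22 ± 0.21 did not pass the test (limma adjusted p = 0.65); this transcript does not check the edit, since a frameshift of 1 base need not lower the RNA. The function of NRF2 was therefore read from the RNAs it is known to drive.

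More RNAs were strongly lower than strongly higher in DKO cells. Among the 13445 rows with a symbol, 1027 were lower and 915 higher in DKO cells (7.64% and 6.81% of the rows tested), but 390 rows fell by at least 1 on the log2 scale (2.9%) and only 100 rose by as much (0.744%). With a change of at least 3 the counts were 29 lower and 5 higher. These counts depended on the setting: without the mean-variance trend 588 rows were higher. With a mean of at least 25 normalized counts 222 fell and 66 rose by at least 1. Of the called rows, 1903 had groups that did not overlap, as 21.6% of all rows with a symbol did. The median difference over the rows tested was -0.01. Part of the strong calls came from rows that passed the filter through 1 genotype alone, 68 rows through KEAP1-KO cells (57 called) and 16 through DKO cells (13 called), and such rows had to differ. The row with the lowest difference of all, the antisense gene Gm20658, lay outside the naming rule and was picked after its values were seen: it fell from 9.15 ± 0.06 to 2.15 ± 0.18 (SD, n = 4), against 2.99 in WT cells.

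**Figure D1:**
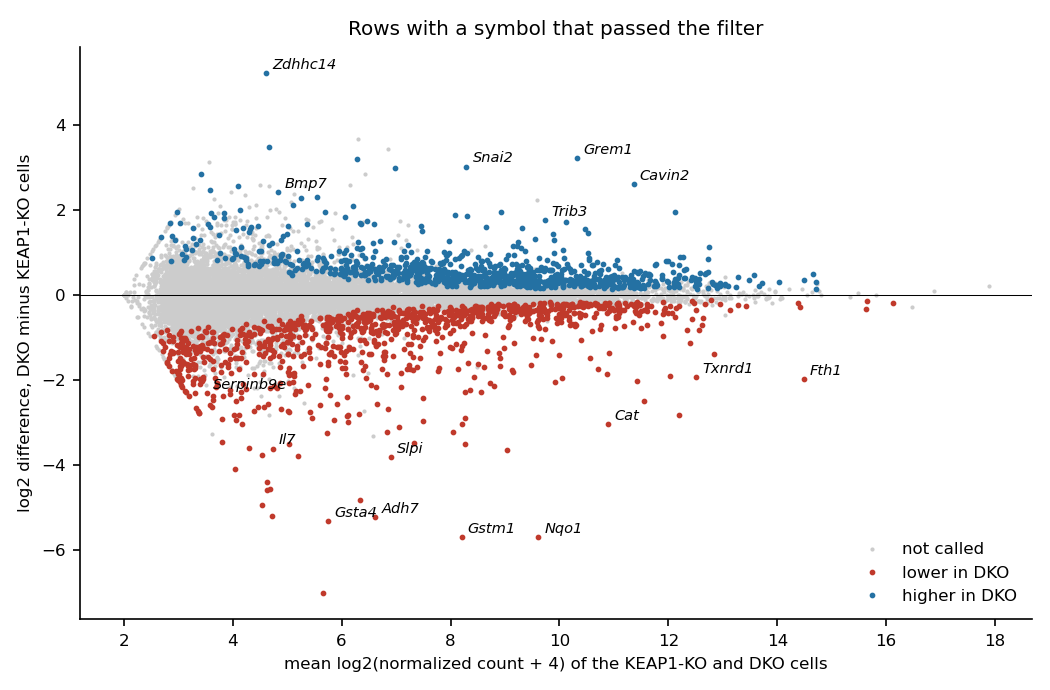
Each point is 1 of the 13445 rows with a symbol. The x axis is the mean log2(normalized count + 4) of KEAP1-KO and DKO cells and the y axis the log2 difference, DKO minus KEAP1-KO; the 1027 red points and 915 blue points passed an adjusted p of 0.05. Nqo1 and Gstm1 lie at -5.68, and Zdhhc14 is the highest point, at 5.22.

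The 7 lists of redox and detoxification enzymes held 126 tested rows, of which 53 were lower, 10 higher and 63 not called in DKO cells, and their median difference was -0.53. When each library was left out in turn, 44 of the 53 falls were called in all 8 fits. Gsta1, Gsta2, Mgst1, Slc11a1, Cyp1a1 and, among genes described further on, Il7, Serpinb9e, Serpinb9g, Cmpk2, Vwf and Zdhhc14 passed the filter only through all 4 libraries of their higher genotype, so they were called in 4 of the 4 fits in which they could be tested. These lists were drawn up with results of these libraries known.

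Quinone and carbonyl reductases and dehydrogenases fell in 7 of 21 tested rows and rose in 1. Nqo1 (gene row ENSMUSG00000003849), the quinone reductase used as the standard reporter of NRF2 activity, read 12.31, 12.54, 12.44 and 12.53 in KEAP1-KO cells and 6.86, 6.78, 6.79 and 6.65 in DKO cells. The fall of 5.68 ± 0.07 (SE; limma adjusted p = 1.10e-13) took it below the WT mean of 9.01. Adh7, an alcohol and retinol dehydrogenase (gene row ENSMUSG00000055301), read 9.07, 9.33, 9.23 and 9.25 in KEAP1-KO and 4.06, 3.63, 4.14 and 4.21 in DKO cells, a fall of 5.21 ± 0.16 (limma adjusted p = 3.72e-10) that left it above the WT mean of 2.62. Aldh3a1, an aldehyde dehydrogenase, had reads in only 1 DKO library (7.24, 7.29, 7.34 and 7.41 against 2.0, 2.0, 2.0 and 2.51; difference -5.19, limma adjusted p = 1.70e-08). Ptgr1, which reduces prostaglandins and reactive alkenals, fell by 2.89, the aldehyde oxidase Aox1 by 2.42, Aldh3b1 by 1.43 and the mitochondrial Aldh2 by 0.73. Cyb5r1, a cytochrome b5 reductase, was the member that rose, by 1.29.

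Glutathione S-transferases, which attach glutathione to electrophiles, fell in 12 of 20 tested rows and rose in 1, with a median of -1.11. Gstm1 (processed transcript row ENSMUST00000198532) read 11.0, 11.05, 11.07 and 11.06 in KEAP1-KO cells and 5.40, 5.31, 5.27 and 5.46 in DKO cells. The fall of 5.68 ± 0.06 (limma adjusted p = 1.01e-14) was as large as that of Nqo1. Gsta4, which detoxifies the lipid peroxidation product 4-hydroxynonenal (gene row ENSMUSG00000032348), read 8.38, 8.37, 8.45 and 8.43 in KEAP1-KO and 2.98, 3.51, 3.03 and 2.89 in DKO cells (difference -5.30 ± 0.20, limma adjusted p = 2.17e-09). Gsta2 was at 0 in every DKO and WT library and at 6.20, 5.49, 6.26 and 6.39 in KEAP1-KO cells, so that its normalized count was at least 89.9-fold lower in DKO cells against a floor of 3 reads over the group. Gsta1 fell by 4.92 ± 0.27, the membrane-bound Mgst1 by 4.57 ± 0.21 and Gstm2 by 3.02 ± 0.08. Gsta1 and Gsta2 are near-identical in sequence and the mu class holds close copies, so how reads were split among these is uncertain. Mgst3 rose by 0.69, whereas Gstk1 (0.61), Gstz1 (-0.08) and Gstcd (0.17) did not pass the test.

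Genes of glutathione supply and use fell in 8 of 19 tested rows and rose in 2, with a median of -0.16. Gclm, the modifier subunit of glutamate-cysteine ligase that makes the first step of glutathione synthesis (processed transcript row ENSMUST00000137540), read 8.71, 9.27, 9.11 and 9.21 in KEAP1-KO and 5.55, 4.87, 6.11 and 5.83 in DKO cells, a fall of 3.48 ± 0.26 (limma adjusted p = 1.87e-06). The catalytic subunit Gclc (processed transcript row ENSMUST00000216315) read 11.0, 11.01, 11.08 and 11.02 against 8.92, 9.08, 9.12 and 9.18, and fell by 1.95 ± 0.05 (limma adjusted p = 1.24e-10). The groups of neither gene overlapped, which the rule for naming list members required, and both genes ended below WT cells (by 1.27 and 0.72). Slc7a11, the cystine-importing chain of the system xc- exchanger (retained-intron transcript row ENSMUST00000142932), stood at 9.69, 9.75, 9.79 and 9.78 in KEAP1-KO and 7.74, 7.71, 7.63 and 7.68 in DKO cells (difference -2.06 ± 0.07, limma adjusted p = 9.55e-10). Its partner Slc3a2, the heavy chain that also serves other amino acid transporters, moved the other way, from 11.64, 11.70, 11.73 and 11.75 to 12.38, 12.37, 12.49 and 12.47 (difference 0.72 ± 0.04, limma adjusted p = 1.10e-07). Glutathione reductase Gsr fell by 1.35 and glutathione synthetase Gss by 0.56. Chac1, which breaks glutathione down, rose by 1.62 ± 0.08 (limma adjusted p = 3.28e-08), while its relative Chac2 fell by 0.5. The rows of Gpx1 (0.69) and Gpx4 (-0.07) were not called.

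**Figure D2:**
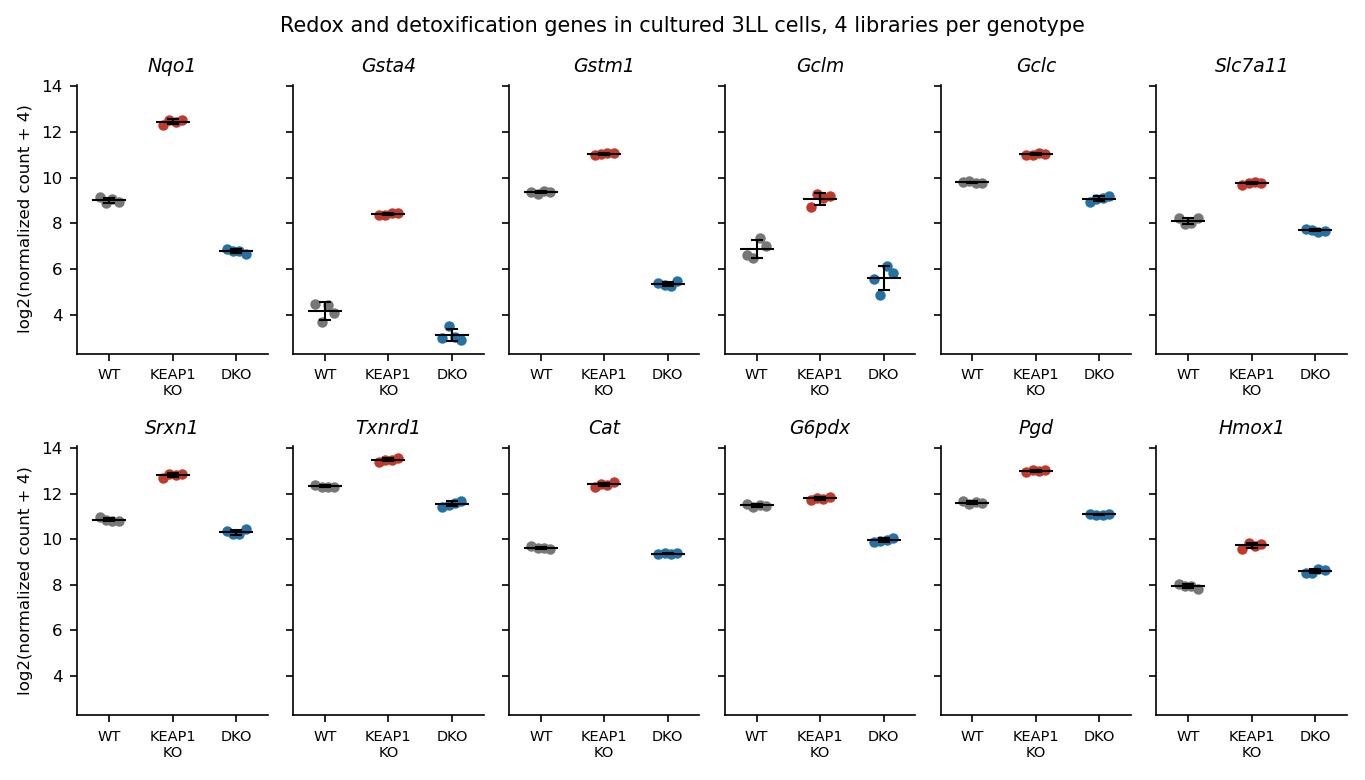
Each panel is 1 row, with log2(normalized count + 4) on the y axis; the points are the 4 libraries of each genotype, and the bars are the mean and SD. In all 12 panels the KEAP1-KO libraries lie above the DKO libraries, and for Nqo1 and Gstm1 the DKO libraries lie far below the WT libraries, whereas for Hmox1 they remain above them. List members were named only where the KEAP1-KO and DKO libraries do not overlap.

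The thioredoxin branch and the enzymes against peroxides fell in 9 of 21 tested rows and rose in 3, with a median of -0.23. Catalase, Cat (gene row ENSMUSG00000027187), read 12.31, 12.41, 12.39 and 12.5 in KEAP1-KO and 9.34, 9.40, 9.36 and 9.37 in DKO cells. Its fall of 3.03 ± 0.05 (limma adjusted p = 6.82e-13) brought it within 0.25 of the WT level. Srxn1, the sulfiredoxin that repairs over-oxidized peroxiredoxins (processed transcript row ENSMUST00000137751), read 12.68, 12.84, 12.81 and 12.88 and 10.36, 10.22, 10.22 and 10.44 (difference -2.49 ± 0.06, limma adjusted p = 5.63e-11). Txnrd1, the cytosolic thioredoxin reductase (retained-intron transcript row ENSMUST00000218082), read 13.39, 13.48, 13.48 and 13.55 and 11.41, 11.5, 11.60 and 11.68 (difference -1.93 ± 0.05, limma adjusted p = 1.37e-10). Osgin1, an oxidative stress response gene, fell by 2.27, Prdx6 by 1.47 and Prdx1 by 1.38. The cytosolic Txn1 fell by 0.67 and Prdx3, the mitochondrial peroxiredoxin, by 0.56. Sesn2, a stress-inducible sestrin that is also on the ATF4 list, rose by 1.44 ± 0.07, and the endoplasmic reticulum enzyme Prdx4 rose by 0.45. Mitochondrial superoxide dismutase Sod2, at -1.23, did not pass the test.

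Enzymes that supply NADPH fell in 5 of 14 tested rows and rose in 2, with a median of 0.02. G6pdx, the entry enzyme of the pentose phosphate pathway (protein-coding transcript row ENSMUST00000143521), read 11.71, 11.83, 11.77 and 11.87 in KEAP1-KO and 9.88, 9.90, 9.96 and 10.06 in DKO cells (difference -1.84 ± 0.05, limma adjusted p = 1.32e-10). Pgd, the next NADPH-producing step (retained-intron transcript row ENSMUST00000124409), read 12.92, 13.03, 12.97 and 13.03 and 11.09, 11.08, 11.05 and 11.11 (difference -1.91 ± 0.04, limma adjusted p = 7.62e-12). Transaldolase Taldo1 fell by 1.74, transketolase Tkt by 1.19 and the cytosolic malic enzyme Me1 by 1.04. The mitochondrial malic enzyme Me2 rose by 0.53 and NAD kinase Nadk by 0.25; Idh2 (0.18) and both rows of Nnt were not called. Me2 lies in a stretch of chromosome 18 where neighbouring genes were also higher in DKO cells.

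Among genes of iron and heme handling, 7 of 16 tested rows fell and 1 rose. Blvrb, the biliverdin reductase B that acts after heme breakdown (retained-intron transcript row ENSMUST00000207799), read 10.71, 10.94, 10.83 and 10.97 in KEAP1-KO and 7.32, 7.12, 7.15 and 7.29 in DKO cells (difference -3.64 ± 0.07, limma adjusted p = 7.62e-12). Fth1, the ferritin heavy chain that stores iron (protein-coding transcript row ENSMUST00000235407), read 15.38, 15.55, 15.43 and 15.52 and 13.51, 13.53, 13.47 and 13.48 (difference -1.97 ± 0.05, limma adjusted p = 6.67e-11) and ended 1.52 below WT cells. Hmox1, heme oxygenase 1 (retained-intron transcript row ENSMUST00000159631), read 9.59, 9.81, 9.70 and 9.80 and 8.52, 8.53, 8.70 and 8.63, a smaller fall of 1.13 ± 0.07 (limma adjusted p = 3.18e-07) that left it 0.66 above WT cells. The transferrin receptor Tfrc fell by 0.97 and the iron transporter Slc11a1 by 2.38. The heme transporter Slc48a1 fell by 2.98 ± 0.67 (limma adjusted p = 0.0132; 0.0828 with a pseudocount of 0.4), with 1 DKO library at 0 and the other 3 between 5.18 and 5.71. The ferritin light chain row Ftl1, at -1.83, was not called, and the heme synthesis enzyme Cpox rose by 0.86.

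Conjugation and efflux genes fell in 5 of 15 tested rows and none rose; the median difference was -0.81. Cyp1a1, a xenobiotic-oxidizing cytochrome P450, was at 0 in every DKO and WT library and at 4.77, 4.79, 4.88 and 4.67 in KEAP1-KO cells, which makes its normalized count at least 32-fold lower in DKO cells against the same floor. The glucuronosyltransferase Ugt1a6a fell by 3.49 ± 0.56 (limma adjusted p = 0.00139), with DKO libraries at 2.0, 2.0, 4.97 and 4.21. Ugt1a7c fell by 0.93, the efflux pump Abcc4 by 1.30 and Por, which passes electrons to cytochromes P450, by 0.67. Transcripts of the Ugt1a locus share their 3′ exons, so the split of reads among them is uncertain.

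Of 33 tested rows of proteasome subunits 5 fell and 1 rose, with falls between 0.18 (Psmd1, called in 1 of 8 fits without 1 library) and 0.53 (Psma5, at -0.28 and no longer called after neighbouring genes were centred) and a median of -0.10. The rise of Psmc2, by 0.30, was lost after the same centring (-0.00826, limma adjusted p = 0.964). Among partners of NRF2, Mafg, a small MAF with which NRF2 binds DNA, read 4.86, 4.96, 4.83 and 4.51 in KEAP1-KO and 3.44, 4.05, 3.5 and 3.65 in DKO cells (difference -1.13 ± 0.21, limma adjusted p = 0.00439). The autophagy receptor Sqstm1, which competes with NRF2 for KEAP1, fell by 1.56 ± 0.43 (limma adjusted p = 0.0395; called in 1 of 8 fits without 1 library). Bach1, which represses NRF2 sites, was at -0.53 and was not called, nor were the other 9 tested rows of that list.

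Set against WT cells, the DKO cells did not return to the starting level for many of these genes. The tests against WT share libraries with the main comparison, so values are given side by side. Of the 126 redox and detoxification rows, 56 were higher and 16 lower in KEAP1-KO than in WT cells, whereas 18 were higher and 40 lower in DKO than in WT cells. Over all rows with a symbol 12.7% were higher and 11.5% lower in KEAP1-KO cells, and 13% were higher and 13.2% lower in DKO cells. Nqo1 was 3.44 above WT in KEAP1-KO cells and -2.24 in DKO cells, Gstm1 1.68 and -4.0, G6pdx 0.31 and -1.53, and Txnrd1 1.16 and -0.77. All of these DKO levels were below WT in the limma test. Taldo1 (-0.07), Prdx6 (0.02) and Mgst1 (-0.07) were not called against WT, and Hmox1 (0.66), Osgin1 (0.49) and Adh7 (1.39) remained above it.

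The promoters of these genes were searched for the core of the antioxidant response element, TGACNNNGC, on both strands, in the 250 bases before and 50 after each gene start (RefSeq, GRCm38.p6). Of the genes with a tested row, 8652 had such a promoter by symbol, and 1442 of these (16.7%) held the core. It was found for 18 of 90 genes that fell by at least 2 (20%), for 134 of 749 that fell by any amount (17.9%) and for 98 of 633 that rose (15.5%), and for 12.4% of all 32851 promoters in the table. The stretches below are shown because they carry the core in redox genes, and in the NRF2 partner Mafg, that fell in DKO cells; the core, or its reverse complement, is in capitals, with 10 bases on each side, written 5′ to 3′ on the strand of the gene. A match is a description of letters, and the share among genes that fell was close to that of all tested genes. The genes shown were picked from falls, and the core also lay in promoters of Sesn2, Ern1, Vegfc, Rrm2, Twist1 and Slc7a6, which rose.
Gclm (chr3:122245413-122245441, plus strand): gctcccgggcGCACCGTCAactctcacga
Mgst1 (chr6:138140461-138140489, plus strand): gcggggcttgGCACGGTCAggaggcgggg
Txnrd1 (chr10:82859104-82859132, plus strand): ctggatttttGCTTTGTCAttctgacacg
Srxn1 (chr2:152105542-152105570, plus strand): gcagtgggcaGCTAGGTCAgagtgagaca
G6pdx (chrX:74428919-74428947, minus strand): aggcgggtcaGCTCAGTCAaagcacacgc
Pgd (chr4:149166061-149166089, minus strand): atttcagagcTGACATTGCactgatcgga
Me1 (chr9:86695902-86695930, minus strand): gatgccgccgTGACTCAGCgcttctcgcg
Mafg (chr11:120633751-120633779, minus strand): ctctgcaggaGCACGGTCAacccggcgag
Counted from the first base of the gene as 0, the core begins at -134 in Gclm, at -92 in Txnrd1, at -57 in G6pdx and at -56 in Mgst1. In Pgd and Srxn1 it begins after the start, at 3 and 28, inside the transcribed gene. The letters around the Pgd match can be read as protein-coding sequence of that gene.

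The 3 secreted or cytosolic candidates that the study singled out from these libraries all fell, which is therefore no independent evidence of their direction. Il7, a cytokine that sustains lymphocytes (processed transcript row ENSMUST00000191681), read 6.41, 6.68, 6.61 and 6.46 in KEAP1-KO and 3.15, 2.84, 3.03 and 2.71 in DKO cells (difference -3.60 ± 0.20, limma adjusted p = 1.15e-07). Slpi, a secreted inhibitor of leukocyte proteases (gene row ENSMUSG00000017002), read 8.66, 8.91, 8.75 and 8.89 and 5.18, 5.15, 4.81 and 4.85 (difference -3.81 ± 0.12, limma adjusted p = 4.75e-10). Serpinb9e, a relative of the granzyme B inhibitor Serpinb9 (gene row ENSMUSG00000062342), read 4.72, 4.42, 4.97 and 4.62 and 2.0, 2.61, 2.61 and 2.28 (difference -2.31 ± 0.24, limma adjusted p = 3.49e-05), close to the lowest value the scale allows. For none of the 3 did the groups overlap, but Il7 and Serpinb9e passed the filter only through their KEAP1-KO libraries, so for these genes a difference was built in. Against WT the DKO levels of Il7, Slpi and Serpinb9e were 0.60, -0.22 and 0.20, none of them called.

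Of the other clade B serpins, inhibitors that act inside cells on proteases, the 6 tested rows fell. Serpinb9b, a close relative of Serpinb9e, went from 10.86, 11.15, 11.0 and 11.09 in KEAP1-KO to 10.13, 10.22, 10.13 and 10.21 in DKO cells. This fall of 0.85 ± 0.06 (limma adjusted p = 1.90e-06) left it 3.46 above WT cells, against 4.31 in KEAP1-KO cells. Serpinb9 itself fell by 0.53, Serpinb6a by 0.37, Serpinb9c by 1.64, Serpinb9g by 1.72 and Serpinb1b by 1.66. Serpinb9g passed the filter only through its KEAP1-KO libraries, so a difference was built in. The call was lost with a pseudocount of 0.4 for Serpinb1b and Serpinb9c (limma adjusted p = 0.0789 and 0.0958), with voom weights for Serpinb1b (0.0598) and without the mean-variance trend for Serpinb6a (0.0795). The Serpinb9 genes are close copies that lie side by side on chromosome 13, and the split of reads among them is uncertain.

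Cytokines, growth factors and prostaglandin enzymes changed in both directions, with 7 of 24 tested rows lower and 4 higher. Ptgs2, the inducible cyclooxygenase (protein-coding transcript row ENSMUST00000190784), read 12.31, 12.53, 12.38 and 12.51 in KEAP1-KO and 10.43, 10.39, 10.47 and 10.41 in DKO cells (difference -2.01 ± 0.05, limma adjusted p = 6.38e-11) and stayed 1.19 above WT. Ptgs1, the constitutive form, rose from 5.71, 5.99, 4.83 and 5.44 to 7.09, 7.22, 7.42 and 7.04 (difference 1.70 ± 0.22, limma adjusted p = 2.87e-04). Csf1, the macrophage growth factor, fell by 1.42, the alarmin Il33 by 1.13 (not called with voom weights, limma adjusted p = 0.0679) and Fgf1 by 1.04 (called in 4 of 8 fits without 1 library). The lymphangiogenic Vegfc rose by 0.88 and Gdf15, a stress cytokine, by 0.81. Among chemokines, which draw leukocytes into tissue, 2 of 8 tested rows fell, Cxcl1 by 1.42 and Ccl7 by 0.73, and none rose; Ccl2 (-0.65) and Cxcl10 (-0.04) were not called.

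Interferon-stimulated genes fell in 5 of 28 tested rows and rose in none, with a median of -0.24. Gbp7, an interferon-induced GTPase (gene row ENSMUSG00000040253), read 6.5, 6.41, 6.36 and 6.32 in KEAP1-KO and 3.56, 3.75, 3.86 and 3.44 in DKO cells (difference -2.75 ± 0.24, limma adjusted p = 8.98e-06). Bst2, which tethers budding viruses, read 8.04, 8.12, 7.91 and 8.24 and 6.38, 6.32, 6.15 and 6.52 (difference -1.73 ± 0.10, limma adjusted p = 2.13e-07), while Cmpk2, Igtp and Gbp2 fell by 1.38, 1.28 and 0.58. Igtp was called in 6 of 8 and Gbp2 in 1 of 8 fits without 1 library. With a pseudocount of 0.4 neither Cmpk2 (limma adjusted p = 0.118) nor Igtp (0.0852) was called, and Igtp was not called with voom weights (0.0813), so the calls of 3 of the 5 falls depended on the setting. Irf9 (0.44) and Ifit3 (0.46) were not called. Among antigen presentation and checkpoint genes 8 of 28 rows fell and 2 rose. Calr3, a testis-type calreticulin, fell by 3.10 ± 0.15, the non-classical class I gene H2-T23 by 1.22, the checkpoint ligand Cd276 by 1.11 and the peptide transporter subunit Tap2 by 0.73. H2-DMa and H2-DMb1, class II loading factors, fell by 0.96 and 0.74, called in 3 of 8 and 1 of 8 fits without 1 library. Nlrc5, which drives class I genes, rose by 0.67, and Cd274, which encodes PD-L1, was at 0.02 and was not called.

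Genes of the ATF4 stress response and serine synthesis rose most often among the lists: 18 of 29 tested rows were higher and 3 lower, with a median of 0.59. In each of the 8 fits without 1 library 17 of the 18 rises were called. ATF4 is the transcription factor of the integrated stress response, which turns on amino acid import and synthesis. Trib3, a pseudokinase that is induced by ATF4 (processed transcript row ENSMUST00000123145), read 8.75, 8.89, 8.76 and 9.01 in KEAP1-KO and 10.65, 10.57, 10.62 and 10.63 in DKO cells (difference 1.77 ± 0.07, limma adjusted p = 3.33e-09). Chac1 (gene row ENSMUSG00000027313) read 6.61, 6.80, 6.62 and 6.52 and 8.35, 8.29, 8.15 and 8.25, and Aldh1l2, the mitochondrial 10-formyltetrahydrofolate dehydrogenase (processed transcript row ENSMUST00000141184), 9.72, 9.65, 9.69 and 9.69 and 11.16, 11.20, 11.34 and 11.25 (difference 1.55 ± 0.04, limma adjusted p = 1.37e-10). Neither gene had groups that overlapped, which the rule for naming list members required. Slc7a5, the large neutral amino acid transporter that pairs with Slc3a2, rose by 1.12, the transcription factor Atf5 by 1.15 and the stress gene Nupr1 by 1.03. Of the serine pathway, Psph rose by 0.95, Shmt2 by 0.79, Psat1 by 0.51 and Phgdh by 0.19, and asparagine synthetase Asns rose by 0.81. Atf4 itself was 0.43 higher, Ddit3 (CHOP) 0.89 and Atf3 0.59. The falls were the neutral amino acid transporter Slc1a4 (-0.76), Cebpb (-0.59) and the glycine transporter Slc6a9 (-0.54).

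Against WT, Trib3 was -1.03 in KEAP1-KO and 0.74 in DKO cells, Chac1 -1.0 and 0.62, Sesn2 -0.45 and 0.99, and Aldh1l2 -1.43 and 0.12. Of the 29 rows, 17 were lower and 5 higher in KEAP1-KO than in WT cells, and 4 were lower and 11 higher in DKO than in WT cells.

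**Figure D3:**
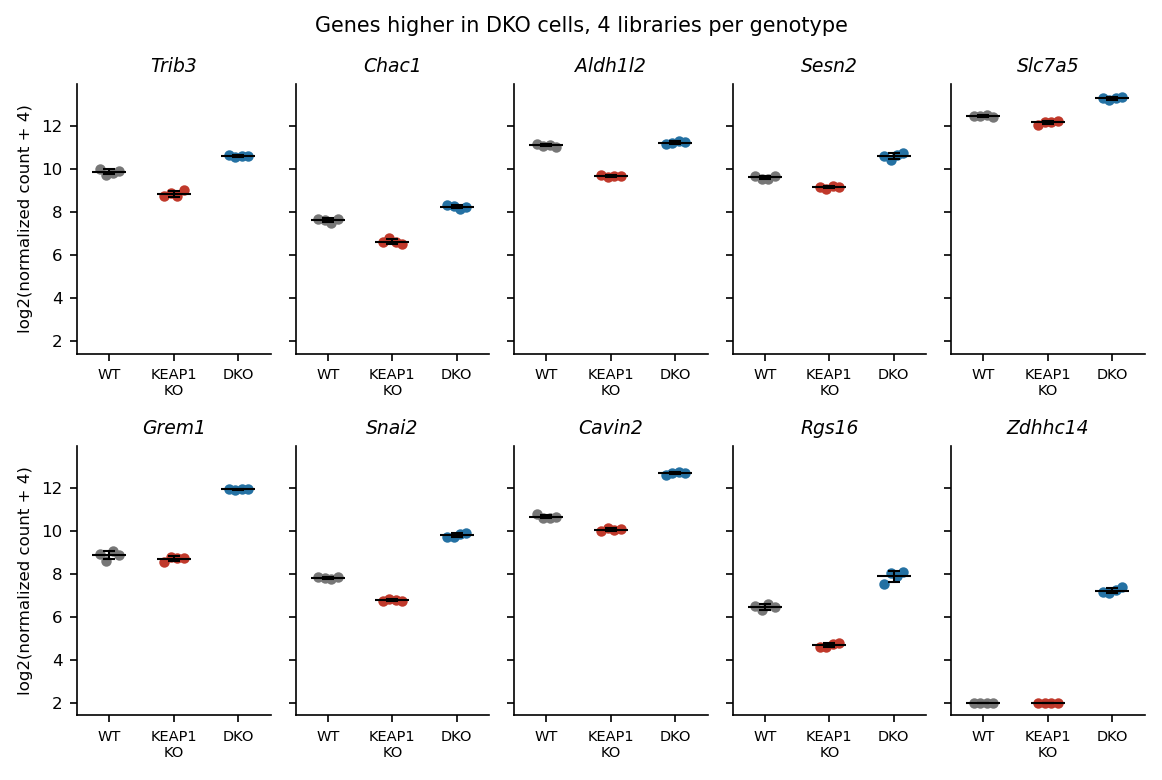
Log2(normalized count + 4) is on the y axis for 10 rows that rose in DKO cells; points are the 4 libraries of each genotype and bars the mean and SD. The 5 genes of the ATF4 list lie lowest in KEAP1-KO cells, and Zdhhc14 sits at 2.0 in all WT and KEAP1-KO libraries and between 7.11 and 7.38 in DKO cells.

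Grem1, Snai2, Cavin2, Zdhhc14, Rgs16 and Bmp7 were among the 15 rows with the largest rises. Grem1, a secreted antagonist of bone morphogenetic proteins (gene row ENSMUSG00000074934), read 8.56, 8.80, 8.74 and 8.73 in KEAP1-KO and 11.92, 11.91, 11.94 and 11.94 in DKO cells (difference 3.22 ± 0.08, limma adjusted p = 6.44e-11), against a WT mean of 8.86. Snai2, the repressor known as SLUG that drives epithelial-mesenchymal transition (gene row ENSMUSG00000022676), read 6.76, 6.84, 6.78 and 6.75 and 9.72, 9.72, 9.87 and 9.90 (difference 3.02 ± 0.06, limma adjusted p = 8.48e-12), with WT at 7.81. Cavin2, a coat protein of caveolae (gene row ENSMUSG00000045954), read 9.99, 10.13, 10.02 and 10.06 and 12.60, 12.67, 12.73 and 12.68 (difference 2.62 ± 0.05, limma adjusted p = 6.53e-12), with WT at 10.66. In all 3 genes the DKO libraries lay above both other genotypes. Zdhhc14, a palmitoyltransferase (gene row ENSMUSG00000034265), was at 0 in every KEAP1-KO and WT library and at 7.14, 7.11, 7.26 and 7.38 in DKO cells, at least 213-fold higher in normalized count against the floor of 3 reads over the group. Rgs16, a brake on G protein signaling, rose by 3.21 ± 0.13, and Bmp7 by 2.42 ± 0.13. For Bmp7 the WT mean of 7.34 was above both edited lines.

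The remaining rows among the 15 highest were more uneven. Ccbe1, a matrix protein of lymphatic growth, rose by 2.98 ± 0.47, Dach2, a transcriptional cofactor, by 2.57 ± 0.32, and the chaperone clusterin, Clu, by 2.09 ± 0.12. The serine protease Tmprss11b rose by 2.11 ± 0.30. Zfp608 had 2 of its 4 KEAP1-KO libraries at 0, and Inpp4b, a lipid phosphatase, and Ern1, the stress sensor IRE1, each had 1 (differences 3.48, 2.29 and 2.31; Ern1 was called in 4 of 8 fits without 1 library). Zfp608 was not called with voom weights (adjusted p = 0.228), nor Inpp4b with a pseudocount of 0.4 (adjusted p = 0.1). Metap2, a methionine aminopeptidase, rose by 2.01 in its retained-intron row, which was called in 3 of 8 fits without 1 library and not with a pseudocount of 0.4, without the filter, in the 2 groups alone, with voom weights or with the replicate block (limma adjusted p from 0.0596 to 0.0715). Over all rows of the gene it was lower in DKO cells, at -0.21 (limma adjusted p = 0.0427). Other named rows whose gene as a whole moved less, by over 1.5 times, were those of Zfp608 (1.82), Tyms (0.37), Becn1 (0.17), Sqstm1 (-0.97), Gpi1 (-0.44), Nbr1 and Vwf, where the value in parentheses is the difference over all rows of the gene. Rn18s, ribosomal RNA that the rRNA depletion of the library kit removes, read 9.82, 11.67, 11.43 and 11.69 in KEAP1-KO and 13.75, 13.62, 12.84 and 12.21 in DKO cells (difference 1.95 ± 0.42, limma adjusted p = 0.0109), and its part in other differences was not tested.

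Of the 15 deepest falls, Trim54, Clec4d, Mfsd6 and Cd300lb were on none of the lists. Trim54, a muscle ubiquitin ligase (gene row ENSMUSG00000062077), read 8.74, 8.73, 8.73 and 8.73 in KEAP1-KO and 3.78, 4.14, 3.86 and 3.92 in DKO cells (difference -4.81 ± 0.10, limma adjusted p = 1.09e-11). Clec4d, a lectin receptor of myeloid cells (nonsense-mediated decay transcript row ENSMUST00000204826), read 6.69, 6.94, 6.78 and 6.90 and 2.0, 2.0, 3.21 and 2.51 (difference -4.40 ± 0.25), and Cd300lb, a myeloid surface receptor, fell by 3.75 ± 0.21. Of the 6 tested rows of leukocyte markers 1 fell, 1 rose and 4 were not called, and of the 3 tested rows of muscle markers none was called. Mfsd6, a membrane transporter-like protein, fell by 3.79 ± 0.38.

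In BMP, TGF-beta, WNT and NOTCH signaling 8 of 29 tested rows fell and 10 rose. Inhba, the activin A subunit, rose by 1.63, the WNT antagonist Dkk2 by 0.78 and the inhibitory Smad7 by 0.80. Id3, an immediate target of BMP signals, fell by 1.65 ± 0.17, Id1 by 0.53 and Id2 by 0.46. Id3 was also lower in KEAP1-KO than in WT cells (difference -2.44, limma adjusted p = 6.32e-07). The NOTCH ligand Dll1 fell by 1.57 and Bmp6 by 1.13. Feedback genes of the ERK pathway split too, with 7 of 27 rows lower and 5 higher. The phosphatase Dusp4 read 10.89, 10.92, 10.90 and 11.03 in KEAP1-KO and 8.82, 8.80, 8.91 and 9.02 in DKO cells (difference -2.05 ± 0.06, limma adjusted p = 1.10e-10), and Dusp5 fell by 0.99, the scaffold Ksr1 by 0.82 and Myc by 0.79. Spry2 rose by 0.98, Spry4 by 0.87 and Ksr2 by 1.09 (not called with voom weights, limma adjusted p = 0.0777).

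Genes of the matrix and adhesion list fell in 8 and rose in 10 of 49 tested rows. Col6a3 fell by 2.84 ± 0.14, Col18a1 by 1.33 and Sparc by 1.15, whereas decorin, Dcn, rose by 1.67, the integrin Itga2 by 1.34 (not called with voom weights, limma adjusted p = 0.0907), Col16a1 by 0.93 and the membrane protease Mmp14 by 0.82. Of 25 epithelial rows 5 fell and 4 rose. The tight junction gene Ocln read 7.91, 8.0, 8.12 and 8.11 in KEAP1-KO and 6.54, 6.70, 6.54 and 6.52 in DKO cells (difference -1.46 ± 0.08, limma adjusted p = 1.48e-07), and the keratins Krt18 and Krt8 fell by 1.39 and 0.36. Twist1, like Snai2 a driver of mesenchymal transition, rose by 0.52, Snai1 fell by 0.51, Zeb1 (0.09) was not called, and Igsf5, a junction protein, rose by 1.67 (limma adjusted p = 0.0551 with a pseudocount of 0.4). Among stromal and endothelial markers, which these cultures should lack, Pdgfrb fell by 1.65, Esam by 1.37 (called in 6 of 8 fits) and Vwf by 1.95 in its retained-intron row, while Cdh5 rose by 1.30 and Col3a1 by 0.40. Cdh5 was not called with a pseudocount of 0.4 (limma adjusted p = 0.257), nor Col3a1 without the mean-variance trend (0.0547). Over all rows of the gene Vwf was at -0.46 and was not called (limma adjusted p = 0.0954). Of the 6 tested leukocyte rows, Cd68 fell by 1.26 and Cd14 rose by 0.89.

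Of the glycolysis and hypoxia list 11 of 31 rows fell and 1 rose, with a median of -0.38. Adrenomedullin, Adm, fell by 1.72 ± 0.13, the mitophagy receptor Bnip3 by 1.22 ± 0.08, the oxygen sensor Egln3 by 1.08 ± 0.05, Pdk1, which restrains pyruvate dehydrogenase, by 0.59, and the glucose transporter Slc2a1 by 0.41. Gpi1 fell by 0.68 (called in 4 of 8 fits), hexokinase Hk2 by 0.41, Pkm by 0.39 and Gapdh by 0.32. Of the cholesterol and fatty acid list 6 of 22 rows fell and none rose. Acss2, which makes acetyl-CoA from acetate, fell by 1.54, and the mevalonate enzymes Pmvk, Idi1, Fdps and Mvd by 0.55, 0.49, 0.45 and 0.43, with Mvd called in 2 of 8 fits.

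Chaperones fell in 8 and rose in 6 of 30 rows. The falls were Dnajb4 by 1.40, Cryab by 1.38 (not called with a pseudocount of 0.4, limma adjusted p = 0.348), Hsp90aa1 by 0.54, Bag3 by 0.46, Hsph1 by 0.43, Cct3 by 0.34, Dnaja1 by 0.24 and Hsp90ab1 by 0.13. The rises were Cct8 at 0.40, the mitochondrial Hspa9 at 0.21 and, of genes with a known part in endoplasmic reticulum stress, Dnajc3 at 0.55, Dnajb9 at 0.48, Hspa5 at 0.42 and Xbp1 at 0.68 (called in 1 of 8 fits). Proliferation genes changed by small amounts, with 8 of 40 rows lower and 4 higher. The mitotic genes Bub1 and Nusap1 fell by 0.35 and 0.30, and the S-phase genes Rrm2, Tyms and Mcm5 and cyclin D1, Ccnd1, rose by 0.53, 0.63, 0.38 and 0.41. Of 15 p53 target rows 3 fell, Cdkn1a by 0.65, Bax by 0.49 and the death receptor Tnfrsf10b by 0.23; neither Nusap1 nor Tnfrsf10b was called without the mean-variance trend (limma adjusted p = 0.0655 and 0.143).

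In the autophagy and lysosome list 6 of 28 rows fell and 2 rose. The receptor Nbr1 was at -2.62 in a nonsense-mediated decay transcript (called in 5 of 8 fits, and not with voom weights, adjusted p = 0.271) and at -1.16 over all rows of the gene, the protease Ctsb at -0.79 (3 of 8), Calcoco1 at -0.44 and Becn1 at 0.5. Among amino acid transporters outside the ATF4 list Slc43a2 fell by 1.27 and Slc7a6 rose by 0.43, of 9 tested. Slc7a6 was not called without the mean-variance trend (limma adjusted p = 0.0517) or after centring within 10-megabase bins (0.25, limma adjusted p = 0.0634). Mitochondrially encoded RNAs were lower in 1 and higher in 4 of 15 rows. The rises of mt-Nd4 (0.32) and mt-Nd5 (0.30) were called in each of 8 fits without 1 library but in neither case without the mean-variance trend (limma adjusted p = 0.0668 and 0.0777), and that of mt-Nd4 was also lost with quantile normalization (0.236). Those of mt-Nd2 (0.36), mt-Nd1 (0.15) and the fall of mt-Co1 (-0.18) were called in 3, 1 and 4 of the 8 fits. Of 19 tested rows of abundant long noncoding RNAs 1 fell, Neat1, by 0.71.

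**Figure D4:**
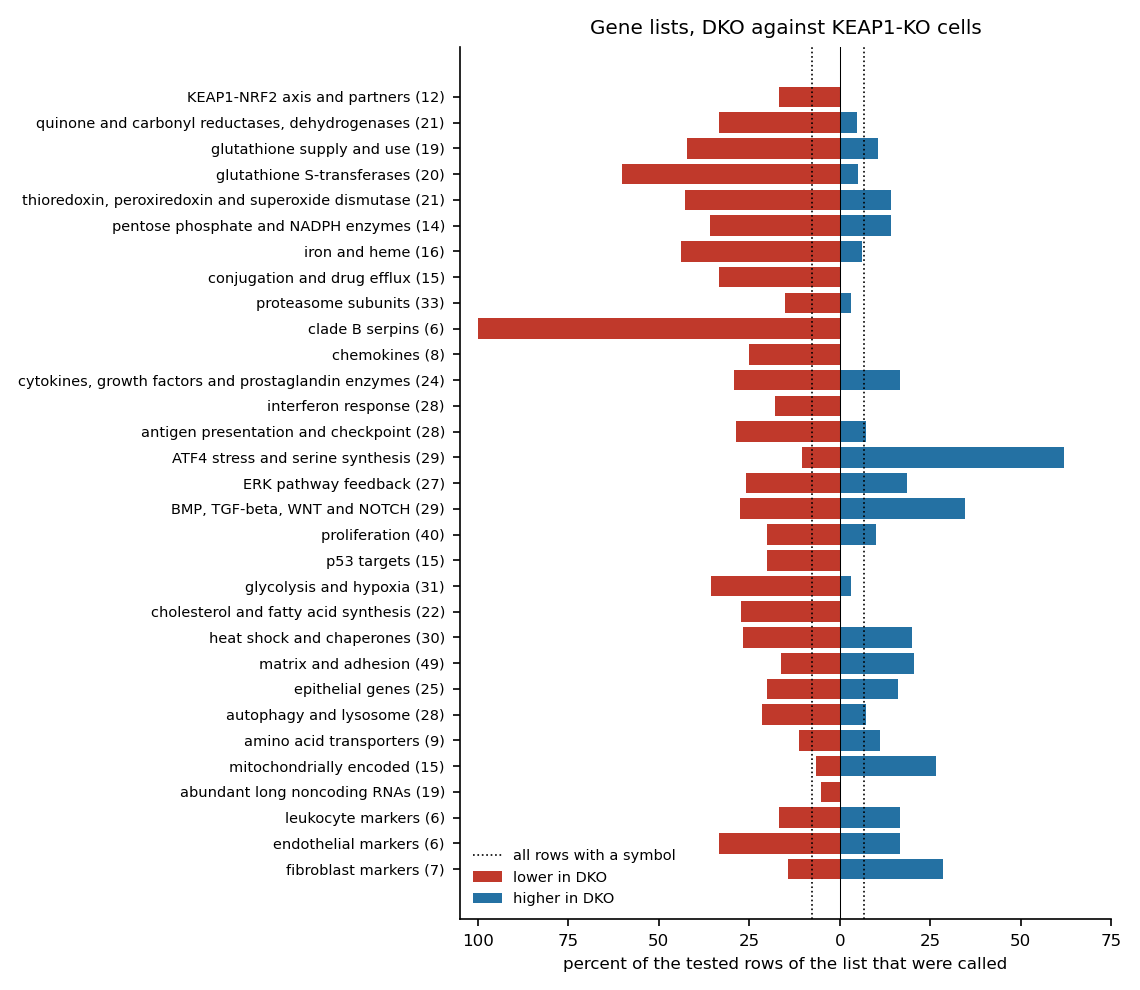
Bars give the percent of tested rows in each list that were lower (left, red) or higher (right, blue) in DKO than in KEAP1-KO cells, with the number of tested rows in brackets; dotted lines mark the 7.64% and 6.81% of all rows with a symbol. The clade B serpins and the glutathione S-transferases extend farthest to the left, and the ATF4 list farthest to the right.

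The position of a gene in the genome also went with its difference. Genes were placed on GRCm38 by GENCODE vM21, and 7463 rows with a mean of at least 6 were used, of which 23.1% were called and whose median difference was 0.01. On chromosome 16, 83 of 209 rows were higher and 10 lower, with a median of 0.29; its rows below 90 megabases had a median of 0.31, and the medians of the 4 DKO libraries against the KEAP1-KO mean lay between 0.29 and 0.35, apart from the KEAP1-KO libraries at -0.06 to 0.04. Chromosome 8 changed sign along its length, with a median of -0.26 over 191 rows below 80 megabases (62 lower, 16 higher) and of 0.19 over 225 rows beyond (10 lower, 70 higher). On chromosome 5 the 323 rows below 110 megabases had a median of 0.23 (93 higher, 14 lower) and the 203 rows beyond it -0.02. Chromosome 14 from 50 megabases (62 higher, 7 lower of 159) and chromosome 18 from 40 megabases (47 higher, 2 lower of 81) had medians of 0.28 and 0.37. Chromosome 19 from 30 megabases (41 lower, 5 higher of 111) and chromosome 3 from 80 megabases (74 lower, 21 higher of 310) had medians of -0.26 and -0.16. The bounds were chosen after the medians of 10-megabase bins were seen, and no test was made of them.

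After the median of each 10-megabase bin was taken out of every library, an alternative added after the data were seen, 2303 rows were called against 2627, and among rows with a symbol 999 were lower and 756 higher against 1027 and 915. Among the named rows, Keap1, Sqstm1, H2-DMb1, Gbp2, Psma5, Psmd4, Psmc2, Slc7a6 and Xbp1 lost their call. Of genes that rose, Snai2 and Igsf5 lie on chromosome 16, Ccbe1, Zfp608, Spry4, Cd14 and Me2 on chromosome 18, Spry2, Clu and Dnajc3 on chromosome 14, and Psmc2, Tmprss11b and Tyms on chromosome 5. Of genes that fell, Gstm1, Gstm2, Adh7, Gclm, Slc7a11, Il7, Gbp7 and Csf1 lie on chromosome 3, and Fth1 and Aldh3b1 on chromosome 19. Trim54 on chromosome 5 and Pdgfrb on chromosome 18 fell too. Only the chromosome is given here, and some of these genes may lie outside the stretches above. Each edited line is 1 clone, and the cause of these shifts was not tested.

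**Figure D5:**
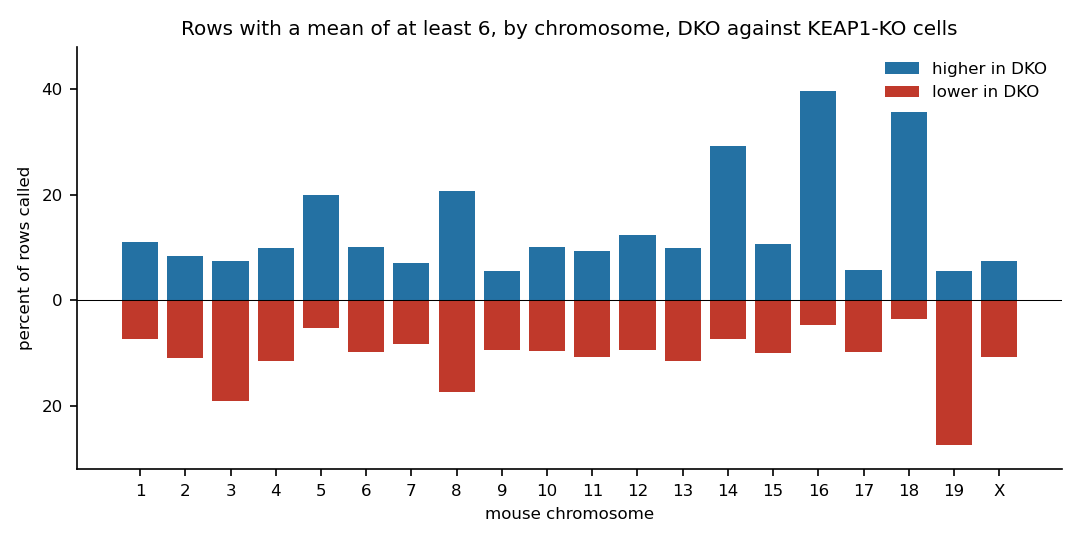
For each mouse chromosome the bars give the percent of rows with a mean of at least 6 that were higher (up, blue) or lower (down, red) in DKO than in KEAP1-KO cells. Chromosomes 16, 18, 14 and 5 have mostly rises, chromosomes 19 and 3 mostly falls, and chromosome 8 many of both.

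The same 2 genotypes were also compared as subcutaneous tumors, 4 of each from the second transplantation experiment, where host cells add to the RNA and fewer cells of a type cannot be told apart from less RNA per cell. By the study's methods KEAP1-KO and DKO tumors grew on opposite flanks of the same mice. The labels do not say which tumors shared a mouse, so the tests below treat the tumors as separate; with the replicate number as a block 2988 rows were called against 3031. Of 15503 rows with a symbol tested there, 7.12% were lower and 6.72% higher in DKO tumors. Of the 163 rows named from the cell comparison, 161 were tested in tumors, 84 were called in the same direction and 9 in the opposite direction. Of the redox and detoxification rows 56 of 143 were lower and 4 higher in DKO tumors. Nqo1 was -6.30 ± 0.18 in tumors against -5.68 ± 0.07 in cells, Gstm1 -5.71 against -5.68, Cat -3.05 against -3.03, Slpi -3.77 against -3.81 and Il7 -3.30 against -3.60. The difference between tumors and cells was itself tested over all 28 libraries, where 6.69% of rows with a symbol were called. By that test Slc7a11, at -4.05 in tumors, had effects that differed by -1.99 ± 0.41 (limma adjusted p = 0.00387).

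Trib3 was 1.77 higher in DKO cells and -0.21 in tumors (difference of effects -1.97 ± 0.27, limma adjusted p = 4.81e-05), and Chac1, Aldh1l2, Sesn2 and Atf5 also had effects that differed. On the ATF4 list none of 31 rows tested in tumors rose and 7 fell. Gbp7 fell in cells by 2.75 and was 1.40 in tumors (difference of effects 4.15 ± 0.35, limma adjusted p = 5.48e-08), and Bst2 and Gbp2 likewise turned from -1.73 and -0.58 to 0.99 and 3.12. Of 63 interferon rows tested in tumors 49 rose and none fell, while leukocyte markers rose in 13 of 21 rows; the part of host cells in these tumor values was not tested. Grem1, 3.22 higher in DKO cells, was -0.08 in tumors (limma adjusted p = 0.9).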

How the data were processed

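Per the paper's methods, rRNA-depleted strand-specific libraries were quantified by the authors with Salmon against GENCODE mouse transcripts and analysed on iDEP. The deposited table gives 1 column per library on a log2 scale, which the values show to be log2(normalized count + 4): in all 28 libraries 100% of the low values checked were whole reads within 0.05, so read totals could be recovered. The authors' row filter is not given in the sources used here. Transcript types and positions came from GENCODE vM21, which held 97.0% of the transcript rows.

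Rows that reached 5 normalized counts in 4 or more of 12 cell libraries (29744) were fitted with limma 3.58.1 in R 4.3.3, with a mean-variance trend and Benjamini-Hochberg adjustment over all of them (threshold 0.05), and WT cells shared the estimate of spread. Tumors, and the difference between tumors and cells, were fitted likewise. The fit was tested on simulated data. Floors cover counting error only.

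Named were the edited genes, genes the study's text names, up to 6 called rows per list with the largest differences and groups that do not overlap, the 15 highest and 15 lowest such rows with a gene name, and cell type markers. Other list members are examples picked after their values were seen. Results for 5 genes are not reported here. The members and lists were chosen with earlier results of these data known. Alternatives were other pseudocounts, filters, scalings and weights, a block for the replicate number, fits without 1 library, sums over the rows of a gene and, added after the data were seen, centring within 10-megabase bins.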

Additional observations from a re-analysis of the deposited data

Results flagged for a closer look

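In 16 of 336 groups of 4 libraries tested with Dixon's criterion, 1 library stood apart from the other 3, and chance gives such a value in about 1 in 20 groups. Among KEAP1-KO cells the libraries that stood apart had log2(normalized count + 4) values at Gstm2 (9.61), Adm (6.95), H2-DMa (4.45), Psmd11 (12.15), Bub1 (11.09), mt-Co1 (16.11), Rn18s (9.82) and Inpp4b (2.0). Among DKO cells they were at Aldh3a1 (2.51), Gsta1 (2.34), Slc48a1 (2.0), Vwf (2.28), Ocln (6.70), Tfrc (11.33), Keap1 (7.47) and Tmprss11b (6.41). For Aldh3a1, Gsta1 and Vwf the other DKO libraries were all at 2.0, where any read makes a library stand apart, so the rate of 1 in 20 does not hold there.

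For 64 of the genes described, the difference between DKO and KEAP1-KO was not the same in tumors and in cultured cells in the limma test of that difference, adjusted over all rows, where 6.69% of rows with a symbol were called. The values below are the log2 difference in tumors minus that in cells. Of genes lower in DKO cells, a value above 0 was largest for Gbp7 (4.15), Cmpk2 (4.07), Cd300lb (3.88), Gbp2 (3.71), Clec4d (3.70), Igtp (3.27), Gsta2 (2.94), Mfsd6 (2.88), Gsta1 (2.79), Bst2 (2.72), Cryab (2.29) and H2-T23 (2.21). It was also above 0 for Col6a3 (2.21), Mgst1 (2.18), Vwf (2.10), Cd68 (1.92), Slc11a1 (1.85), Ccl7 (1.71), H2-DMa (1.55), Serpinb9c (1.43), Pdgfrb (1.41), Osgin1 (1.40) and Slc43a2 (1.34). Smaller values above 0 were found for Aldh3b1 (1.25), Csf1 (1.24), Tap2 (1.21), Trim54 (1.13), Tfrc (0.96), Ptgr1 (0.77), Blvrb (0.74) and Dnajb4 (0.59). Of genes lower in DKO cells, the value was below 0 for Slc7a11 (-1.99), Gstm2 (-1.44), Calr3 (-1.32), Abcc4 (-0.93), Txnrd1 (-0.65), Gclc (-0.57), G6pdx (-0.55), Gsr (-0.43), Psmd11 (-0.34) and Psmd1 (-0.29). Of genes higher in DKO cells, it was lowest for Zfp608 (-6.09), Metap2 (-3.33), Grem1 (-3.30), Rgs16 (-2.25), Dach2 (-2.06), Trib3 (-1.97), Chac1 (-1.96), Ccbe1 (-1.96), Aldh1l2 (-1.83), Sesn2 (-1.72), Cdh5 (-1.57) and Snai2 (-1.48). It was also below 0 for Atf5 (-1.37), Zdhhc14 (-1.31), Cavin2 (-1.12), Slc3a2 (-0.99), Slc7a5 (-0.97), Becn1 (-0.81) and Spry4 (-0.62). Of genes higher in DKO cells, it was above 0 for Igsf5 (3.19), Tmprss11b (2.08), Col3a1 (1.84) and Dcn (1.18). Tumors hold host cells, whose part in these differences was not tested.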

How the results depend on the processing

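Between 1979 and 2862 rows were called under 11 other settings that kept the 12 cell libraries and rows with and without a symbol, 2470 in a fit of the 2 groups alone, 2327 when only rows with a symbol were fitted, 2865 when the rows of each gene were summed, and between 2017 and 2279 when each library was left out in turn, against 2627. A rule of unadjusted p under 0.01 with a difference over 2 gave 205 rows. Among rows with a symbol, 588 instead of 915 were higher without the mean-variance trend, and with a mean of at least 25 normalized counts 222 instead of 390 fell and 66 instead of 100 rose by at least 1; the higher minimum removes rows. The direction of Keap1 was the same throughout, but its call was lost with median centring (-0.22), only the 2 groups (-0.25), no trend (-0.25), reads drawn to 1 depth (-0.24), voom weights (-0.25) and centring within 10-megabase bins (-0.23), and ranged from -0.29 to -0.22 without 1 library; the cause was not tested. The difference reversed for mt-Nd1 with quantile normalization (-0.0102), for Psmc2 within bins (-0.00826) and for Metap2 when the rows of the gene were summed (-0.21). Over 3374 alternative values of 164 named rows, 3177 kept direction and call and 194 lost the call. With a pseudocount of 0.4 the named rows that lost it were Slc48a1, Serpinb1b, Serpinb9c, Sqstm1, Cryab, Cmpk2, Igtp, H2-DMa, Ctsb, Cdh5, Igsf5, Metap2, Inpp4b and Ern1; with voom weights Nbr1, Serpinb1b, Sqstm1, Igtp, Il33, Keap1, Ksr2, Itga2, Metap2, Ern1 and Zfp608; and without the trend Sqstm1, Ctsb, Mvd, Serpinb6a, Psmd6, Nusap1, Keap1, Tnfrsf10b, Psmd4, mt-Co1, Psmd1, mt-Nd1, mt-Nd5, Psmc2, mt-Nd4, mt-Nd2, Col3a1, Slc7a6 and Ern1. In the other settings with all libraries the losses were among Sqstm1, Ctsb, H2-DMa, H2-DMb1, Gbp2, Mvd, Keap1, Psma5, Psmd1, Psmd4, Slc7a6, Xbp1, Metap2, Ern1, Vwf and the mitochondrial rows other than mt-Nd5. With the replicate number as a block 2182 rows were called in cells and 2988 instead of 3031 in tumors; deviations of same-numbered libraries correlated between -0.0223 and 0.00776 in cells and between -0.0279 and 0.0111 in tumors, so the numbers were not taken as pairs, although tumors of the 2 genotypes shared mice. Rows with few reads limit what can be called, since 19.4 to 22.1% of rows in each library were at 0.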
